A study of Homo sapiens with 3 samples.

Results

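The 4 strands of the mimics of miR-195 and miR-497 were followed in RNA bound to Argonaute2 (Ago2) in Hep G2, an established human line from a liver cancer. They are hsa-miR-195 and hsa-miR-497, here called the guide strands, and hsa-miR-195* and hsa-miR-497*, the passenger strands from the opposite arm of each hairpin. They were chosen by these exact names, 4 of the 851 human miRNA names on the array. The 3 groups were non-treated cells, cells transfected with 5 nM of a miR-195 mimic and cells transfected with 5 nM of a miR-497 mimic. Ago2 was immunoprecipitated at 24 h in every group, and 10 ng of each RNA was labelled with Cy3 and read on 1 array per group. The untreated cells carried no control mimic, and RNA from whole cells was not analysed here. With 1 array per group no test between groups was possible, and the SD given throughout is the spread between spots within 1 array, carried to the sum over probes.

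A miRNA is cut from its hairpin precursor as a duplex of 2 strands. Ago2 keeps one strand, the guide, which pairs with target mRNAs through its seed at bases 2 to 8, and the passenger strand is usually discarded. Strand choice is commonly related to the 5′ base of each strand and to how tightly each end of the duplex is paired, the strand with the looser 5′ end being favoured. A synthetic mimic enters Ago2 by the same step. miR-195 and miR-497 belong to the miR-15/miR-107 group, whose members are known for holding back the cell cycle through targets such as cyclins.

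The arms given by RefSeq for these names are shown with the seed in capitals, because the strands differ in their seeds and 5′ ends. The letters of the mimics themselves are not given in the sources used here. The starred strands of miR-16 are added because hsa-miR-16-2* has the seed of hsa-miR-195* and hsa-miR-16-1* resembles its 3′ part.
hsa-miR-195: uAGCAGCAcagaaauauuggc
hsa-miR-195*: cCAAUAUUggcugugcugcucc
hsa-miR-497: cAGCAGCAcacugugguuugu
hsa-miR-497*: cAAACCACacugugguguuaga
hsa-miR-16-1*: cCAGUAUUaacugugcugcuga
hsa-miR-16-2*: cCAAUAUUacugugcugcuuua

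All 4 arms of the mimics lie on the minus strand of chromosome 17 in the GRCh38.p14 assembly. The guide arm of miR-195 is at chr17:7017667-7017687 and its passenger arm at chr17:7017628-7017649, both in the MIR195 hairpin of 87 bases. The guide arm of miR-497 is at chr17:7017979-7017999 and its passenger arm at chr17:7017938-7017959, in the MIR497 hairpin of 112 bases. A gap of 209 bases separates the 2 hairpins. The guides have the same bases at positions 2 to 10 and in all at 12 of 21 positions counted from the 5′ end. Their seed is found in 7 mature human miRNAs of RefSeq, those of miR-15a, miR-15b, miR-16, miR-195, miR-424, miR-497 and miR-6838. The passengers are less alike, with 4 of 22 positions the same. The seed of hsa-miR-195* occurs in 1 other mature arm, hsa-miR-16-2*, and that of hsa-miR-497* in no other. Only hsa-miR-195 among the 4 starts with U, and the others start with C. Among the first 4 bases, A or U makes up 2 in hsa-miR-195, 2 in hsa-miR-195*, 1 in hsa-miR-497 and 3 in hsa-miR-497*.

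The RefSeq arms were folded together to compare the ends of the 2 duplexes. The miR-195 duplex had a predicted free energy of -26.7 kcal/mol with 18 base pairs, and the miR-497 duplex one of -23.7 kcal/mol with 17. Over the 4 outermost pairs, the end at the guide's 5′ base came to -2.5 kcal/mol and that at the passenger's 5′ base to -1.7 kcal/mol in miR-195. In miR-497 these ends came to -0.1 and 0.7 kcal/mol. Over 4 pairs the difference between ends was -0.8 kcal/mol in both duplexes, the end at the guide's 5′ side being the tighter one. The guide's 5′ base itself was unpaired in both duplexes and not among these pairs, while the passenger's 5′ base was paired. The difference between ends depended on the number of pairs counted. With 3 pairs both differences were -0.1 kcal/mol, and with 5 pairs they were -2.3 kcal/mol for miR-195 and 0 for miR-497.

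Of the 851 human miRNAs, 168 were well above background in the non-treated RNA, 153 with the miR-195 mimic and 121 with the miR-497 mimic. The 75th percentile of the probes measured on all arrays was 827, 778 and 263 intensity units in the same order, so the miR-497 array was the dimmest. No spot was saturated. Of 4 liver-lineage miRNAs, miR-192, miR-194 and miR-215 were well above background on every array and miR-122, the most abundant miRNA of normal liver, on none. Of 11 blood, muscle and neuron markers, miR-142-3p, miR-142-5p and miR-128 were well above background on every array, and their part in the results was not tested.

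The guide hsa-miR-195 gave a signal of 45.3 ± 4.95 intensity units without a mimic, 38522 ± 2126 with the miR-195 mimic and 32.8 ± 7.78 with the miR-497 mimic. It was thus near the lower end of the measured range in cells that did not receive it, where 1 probe of its 2 passed the background. With each array scaled to its 75th percentile, the miR-195 array read 903 times the non-treated array, a log2 difference of 9.82 ± 0.18.

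Its passenger, hsa-miR-195*, gave 4.38 ± 2.79 without a mimic, 10321 ± 221 with the miR-195 mimic and 5.49 ± 5.79 with the miR-497 mimic. In both low readings all 4 of its probes failed to pass the background. Against the lowest measured miRNA of the non-treated array the passenger was at least 985-fold higher after transfection. All 16 of its spots on the miR-195 array were well above background.

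The guide hsa-miR-497 gave 11.8 ± 4.90 without a mimic, 45.4 ± 7.10 with the miR-195 mimic and 7903 ± 772 with the miR-497 mimic. The non-treated value was not well above background, and the scaled level on the array of its own mimic was at least 2102-fold higher. Its passenger, hsa-miR-497*, gave -8.53 ± 5.69 without a mimic, -10.5 ± 4.93 with the miR-195 mimic and 272 ± 28.9 with the miR-497 mimic. A value below 0 is a signal under the estimated background. This passenger was at least 76.7-fold higher on the array of its mimic, and again all 16 spots there were well above background.

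Over all human miRNAs measured in the comparison, 10 of 173 (5.78%) were at least 2-fold higher with the miR-195 mimic than in non-treated cells, bounds included. The strands named here made up 3 of the 10, namely hsa-miR-195, hsa-miR-195* and hsa-miR-497. With the miR-497 mimic 7 of 170 (4.12%) were at least 2-fold higher, among them hsa-miR-497, hsa-miR-497* and hsa-miR-195. The strand of the other mimic was the less stable call in each count. For hsa-miR-497 with the miR-195 mimic, the lower bound with normexp background correction was a log2 of 0.35, so 2-fold was not established there. For hsa-miR-195 with the miR-497 mimic, the log2 difference was 0.88 with quantile normalization. It turned to -0.20 with the percentile over all probes and to -0.47 without scaling. Both passengers were thus among the miRNAs past 2-fold on the array of their own mimic and on no other array.

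**Figure D1:**
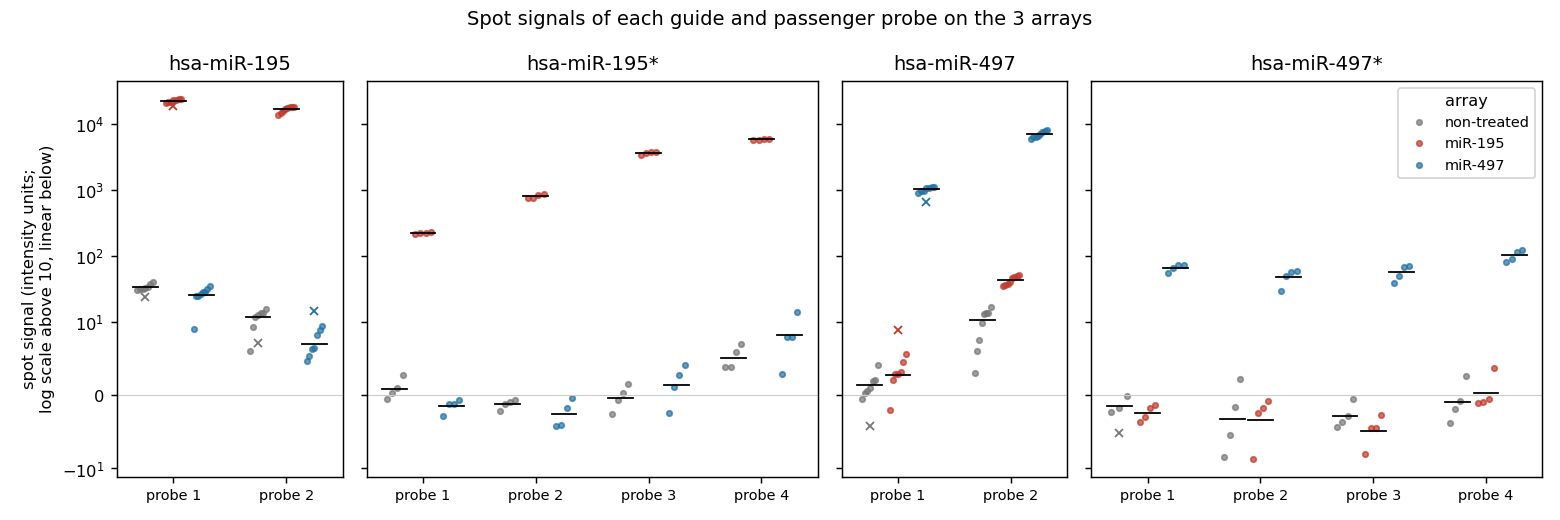
Signal of every spot (vertical axis, intensity units, logarithmic above 10 and linear below) for each probe of the 4 strands (panels) on the 3 arrays (colours). Points are spots, crosses are spots left out for an outlier flag, and black lines are probe means; the passenger hsa-miR-195* spans 216 to 5932 on its own array and hsa-miR-497* spans 29.4 to 120, while both lie around 0 elsewhere.

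Strand choice was described by the passenger signal as a percentage of the guide signal on the array of each mimic, which does not measure it directly. Single strands in Ago2, intact duplex and mimic carried along in the precipitation cannot be told apart in these samples. On the miR-195 array the passenger gave 26.8% ± 1.59 of the guide signal, a guide 3.73 ± 0.22 times the passenger. On the miR-497 array the passenger gave 3.44% ± 0.50 of the guide signal, a guide 29.1 ± 4.20 times the passenger. The guide was therefore the stronger signal of both mimics. The passenger share of the summed strands was 21.1% for miR-195 and 3.32% for miR-497. The miR-195 percentage was 7.79 times the miR-497 one, a log2 difference of 2.96 ± 0.23 by spot error. These are ratios of signals and not of molecules, since probes of different sequence bind their targets with different strength. A guide had 2 probes and a passenger 4, and with the mean in place of the sum over probes the percentages were 13.4% and 1.72%, with the same fold between them. The size of that fold depended on the brighter of the 2 probes for hsa-miR-497. Without it the percentages by probe means were 13.4% and 6.62%, a 2.02-fold difference, and by sums, which then set 4 passenger probes over 1 guide probe, 26.8% and 26.5%, a 1.01-fold difference. Without the brightest passenger probe of miR-195 the fold was 4.61 by means and 3.46 by sums.

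The probes showed where that dependence lay. The 2 probes for hsa-miR-195 gave similar signals on the miR-195 array, 22139 ± 1193 for probe 1 and 16383 ± 1760 for probe 2. The 4 probes for hsa-miR-195* differed widely, at 222 ± 4.37, 796 ± 58.3, 3559 ± 148 and 5744 ± 154, numbered in the order of their identifiers. The brightest of them was 25.9 times the dimmest. This spread was exceeded by 1 of 95 other miRNAs on that array with more than 1 probe, all of them well above background. Their median spread, leaving out hsa-miR-195, was 3.72-fold. Probes 3 and 4 carried 34.5% and 55.7% of the passenger signal.

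For miR-497 the disparity was in the guide, as read on the array of its mimic. There probe 1 for hsa-miR-497 gave 1025 ± 83.7 and probe 2 gave 6877 ± 768, a 6.71-fold difference, and probe 2 carried 87.0% of the guide signal. The 4 probes for hsa-miR-497* were closer together, at 65.9 ± 8.41, 48.3 ± 13.2, 56.7 ± 14.9 and 101 ± 19.1, a spread of 2.09-fold. On this array the miRNAs with more than 1 probe, all well above background, had a median spread of 3.61-fold with both strands left out. Of the 62 such miRNAs other than hsa-miR-497, 15 had a wider spread than it. The sequences of the probes were not used here, and which part of a strand each probe pairs with was not examined.

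Each passenger probe was then divided by each guide probe of the same array, which gave 8 percentages per mimic. For miR-195 they ran from 1.0% to 35.1% with a median of 10.5%, and for miR-497 from 0.702% to 9.82% with a median of 3.09%. No passenger probe exceeded a guide probe on either array. The 2 ranges overlapped: 4 of the 8 miR-195 percentages lay above all those of miR-497, and 3 of the 8 miR-497 percentages lay below all those of miR-195. Of the 64 comparisons across mimics, the miR-195 percentage was the higher in 47. Probes of a strand share the RNA and the array and are not replicates.

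**Figure D2:**
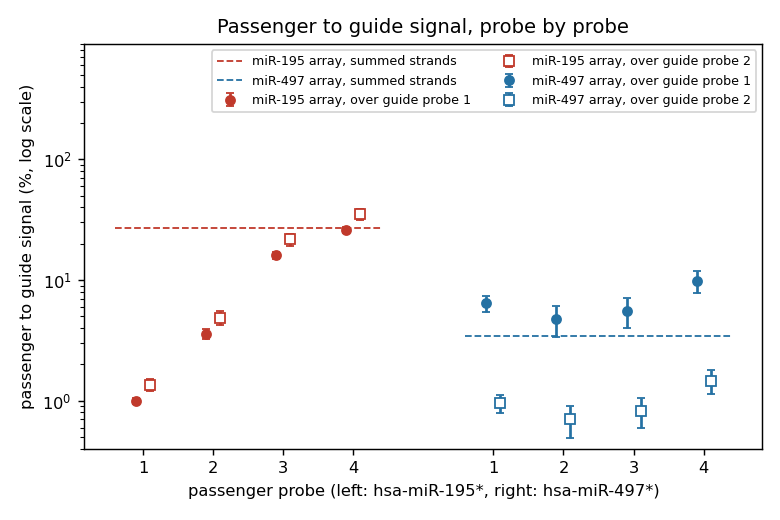
Signal of each passenger probe as a percentage of each guide probe (vertical axis, log scale) on the miR-195 array (red, left) and the miR-497 array (blue, right); filled circles use guide probe 1, open squares guide probe 2, bars are spot SD and dashed lines the summed strands at 26.8% and 3.44%. The miR-195 percentages differ by the passenger probe used, from 1.0% to 35.1%, and the miR-497 percentages separate by the guide probe used.

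The 2 mimics also differed in the level of each strand. On the array of its mimic hsa-miR-195 gave 4.87 times the signal of hsa-miR-497, or 1.65 times after scaling by the 75th percentile. For the passengers the signal was 38.0 times higher for hsa-miR-195*, or 12.8 times after scaling. These compare different probes and carry the same limit as the percentages. A difference in the number of cells reached by a mimic and one in the amount per cell cannot be told apart in these samples.

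Among all human miRNAs of its array, hsa-miR-195 ranked 2 of 153, below only hsa-miR-21 at 53635 ± 2735, an oncogenic miRNA abundant in many tumour lines. The next below was hsa-miR-20b of the miR-17 family at 15530 ± 684. The passenger hsa-miR-195* ranked 7 of 153, between hsa-miR-363 at 14146 ± 610 and hsa-miR-20a at 8491 ± 350. It was followed by hsa-miR-20a and then by hsa-miR-16, an abundant relative of miR-195, at 6387 ± 379. Ranks set signals of different probes side by side and are not an order of molecule numbers. They order sums over probes, 4 for hsa-miR-195* but 2 for hsa-miR-363 and hsa-miR-20a, and so depend on the number of probes.

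With the miR-497 mimic, hsa-miR-497 ranked 2 of 121, again below hsa-miR-21, which gave 37516 ± 3598. Its distance from the next, hsa-miR-19b at 6990 ± 969, was within the spread between spots. The passenger hsa-miR-497* ranked 43 of 121, between hsa-miR-27a at 291 ± 36.5 and hsa-miR-146a at 251 ± 33.7, and was not separated from either by the spread between spots. As shares of the summed human signal of the array, hsa-miR-195 held 14.6% ± 0.81, hsa-miR-195* 3.92% ± 0.084, hsa-miR-497 7.41% ± 0.72 and hsa-miR-497* 0.255% ± 0.027. These shares, like the ranks, rest on sums over 2 probes per guide and 4 per passenger.

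**Figure D3:**
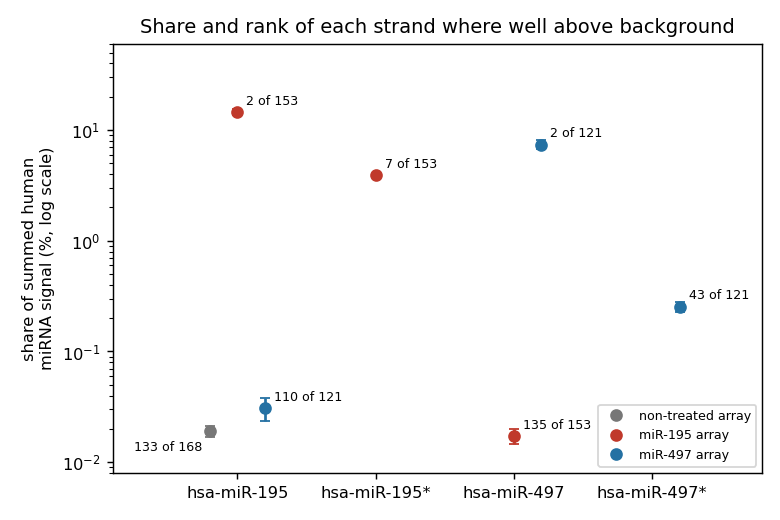
Share of the summed human miRNA signal (vertical axis, percent, log scale) held by each strand on each array where it was well above background, with spot SD as bars and the rank among measured human miRNAs beside each point. Both guides rank second on the array of their mimic, while the passengers stand at 7 of 153 and 43 of 121. Signals are sums over 2 probes per guide and 4 per passenger, so ranks and shares depend on the number of probes.

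The pairs of unstarred and starred strands made by the cells themselves give the scale of such percentages on the same arrays. The array carries 143 such pairs of names, those of the mimics included. Without these, both strands were well above background for 11 in non-treated cells, 7 with the miR-195 mimic and 3 with the miR-497 mimic. In non-treated cells the starred strand gave 0.225% to 340% of the unstarred signal, with a median of 1.70%. The lowest were miR-21 at 0.225%, miR-20a at 0.272% and miR-363 at 0.481%. The highest were miR-454 at 32.9%, miR-624 at 191% and miR-505 at 340%, the last 2 with the starred strand as the stronger signal. Their percentages rest on dim unstarred strands. For miR-624 and miR-505 these gave 42.8 and 47.0 in non-treated cells, and 37.7 and 35.9 with the miR-195 mimic. The order of the pairs rests on sums over probes. By probe means in non-treated cells miR-454 gave 16.5%, below miR-30e at 28.4%, and miR-363 gave 0.241%, below miR-20a at 0.272%.

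The miR-195 percentage of 26.8% was above 5 of the 7 pairs measured on its array, whose median was 2.00%, and below miR-624 and miR-505. The miR-497 percentage of 3.44% was above miR-21 at 0.0848% and miR-17 at 1.20% and below miR-30e at 30.0%. Both placements depended on the number of probes per strand, which differs between pairs. By probe means miR-195 at 13.4% was above 4 of the 7, with miR-30e at 20.9% now above it, and miR-497 at 1.72% was above miR-21 alone of the 3, with miR-17 at 1.81%. Pairs with a dim starred strand are missing from these sets, so the low end of the range is not covered. The 3 pairs measured on every array, miR-17, miR-21 and miR-30e, show how much a percentage moved between arrays without its own mimic: highest over lowest was 1.44 to 2.65-fold.

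**Figure D4:**
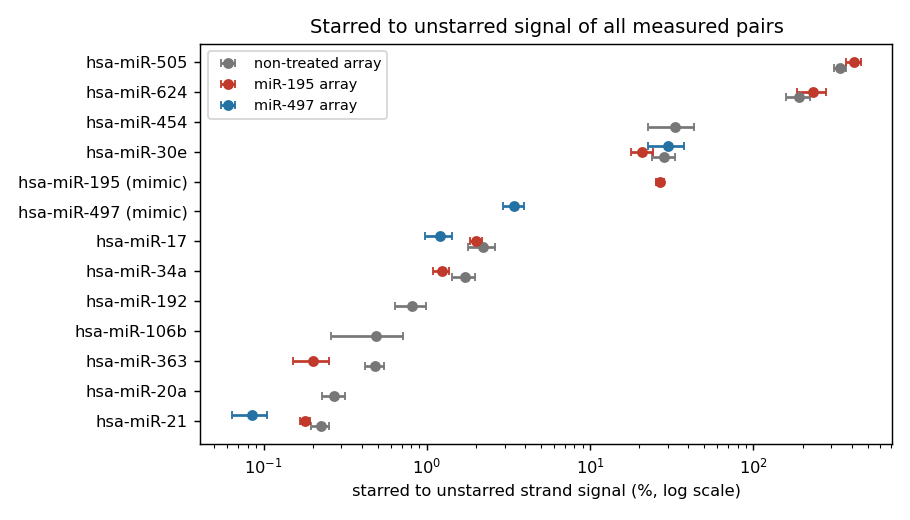
Starred strand signal as a percentage of the unstarred strand (horizontal axis, log scale) for every pair measured on the non-treated, miR-195 or miR-497 array, with spot SD as bars. The mimics of miR-195 at 26.8% and miR-497 at 3.44% lie inside the range of the other pairs, which runs from 0.0848% for miR-21 to 412% for miR-505.

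Each strand was also read on the array of the other mimic, where it was not transfected. In miR-195 mimic cells the guide hsa-miR-497 amounted to 0.118% of the hsa-miR-195 signal there, and was at least 4.08-fold above its non-treated level after scaling, a bound that was under 2-fold with normexp. Only its probe 2 was well above background, at 42.7 ± 6.68 in all 8 spots, while probe 1 gave 2.69 ± 2.42 in none of its spots above background. Had the 2 probes stood in the ratio seen on the miR-497 array, probe 1 would have read 6.37.

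The guide hsa-miR-195 on the miR-497 array amounted to 0.415% of the hsa-miR-497 signal there. After scaling it was 2.27-fold above the non-treated array, a log2 difference of 1.19 ± 0.38, but its unscaled signal was the lower of the 2 and the difference turned to -0.47 without scaling and to -0.20 with the percentile over all probes. Of its 2 probes, probe 1 read 25.8 ± 7.57 there and 33.5 ± 3.75 in non-treated cells, and probe 2, which was not well above background on either, 7.02 ± 1.79 and 11.8 ± 3.22. Neither passenger was well above background on the array of the other mimic.

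The other relatives of the mimics were read on the same arrays. Of the 8 further unstarred members listed for the miR-15/miR-107 group (miR-15a, miR-15b, miR-16, miR-103, miR-107, miR-424, miR-503 and miR-646), 5 were well above background on each array and 0 of these were at least 2-fold higher than in non-treated cells, where the share over all miRNAs was 5.78% with the miR-195 mimic and 4.12% with the miR-497 mimic. Of their 5 starred strands, hsa-miR-16-2* was measured in non-treated cells, at 35.7 ± 6.55, and none on a mimic array. With the miR-195 mimic hsa-miR-16-2*, which has the seed of hsa-miR-195*, read 13.6 ± 3.99. In the last 16 bases, compared without gaps at any offset, the sequence nearest to hsa-miR-195* was hsa-miR-16-1*, with 12 bases the same. It gave -8.46 ± 4.80, -7.45 ± 5.28 and -5.68 ± 6.12 on the non-treated, miR-195 and miR-497 arrays and was well above background on none, while hsa-miR-195* gave 10321 on the miR-195 array. The nearest to hsa-miR-195 was hsa-miR-16, with 14 of the 16 bases the same, and the nearest to hsa-miR-497 was hsa-miR-15a, with 13. For hsa-miR-16 the signal was 5713, 6387 and 2278 on the non-treated, miR-195 and miR-497 arrays, and for hsa-miR-15a it was 1433, 1280 and 436. The strands of miR-497 also resemble each other, with 12 of the last 16 bases of hsa-miR-497 found in hsa-miR-497*. No other miRNA shared more than 11 of the 16 bases of hsa-miR-497*. The part of such likeness in the probe signals was not tested.

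By distance of the scaled log2 signals over the 3 arrays, after centring each miRNA on its own mean, the pattern most like that of hsa-miR-195 was that of hsa-miR-195*, at 0.97 among 152 measured candidates. The next was hsa-miR-1225-5p at 6.70. For hsa-miR-497 the most alike of 120 candidates was hsa-miR-497* at 3.60, followed by hsa-miR-720 at 6.52. For hsa-miR-497*, hsa-miR-720 at 2.92 and hsa-miR-923_v12.0 at 3.35 came nearer than its guide. These distances rest on bounds for both passengers outside the array of their mimic and for hsa-miR-497 in non-treated cells.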

How the data were processed

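Ago2-bound RNA was hybridised to 3 Agilent single-colour miRNA arrays of 1 slide. The authors deposited scanner files whose spot intensity was background-subtracted by Agilent Feature Extraction 10.7.1.1, with no scaling between arrays. A deposited table of normalized log2 values was not used, because it derives from the software total per miRNA. Intensity was averaged over unflagged spots per probe and summed over the probes of a name. For differences between arrays it was divided by the 75th percentile over the 183 probes well above background on all arrays and converted to log2. The well-above-background flag of the files had to be set for over 50% of a probe's spots in use, and a name needed 1 such probe. Otherwise its level was only a bound, taken as the lowest measured human miRNA of the array or as its own signal where that was higher, and folds are given as "at least". The number of arrays limits the precision. Spot SDs cover technical error within an array, and leave out how cultures, precipitations and arrays vary. Whether the arrays came from separate cultures is not stated, and further arrays of these groups were not analysed here.

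Arms and coordinates came from RefSeq tables of GRCh38.p14. The file headers name the hg19 build, and none of their coordinates were used. Duplexes were folded with ViennaRNA 2.7.2 at 37 °C. Calculations used Python 3.11.15, numpy 2.4.6 and pandas 2.3.3, and limma 3.58.1 for normexp. The summary was tested on simulated data with every spot set well above background and unflagged. Detection, bounds, background and scaling were thus not covered by that test. Named were the 4 strands, the miR-15/miR-107 group and its starred strands, the miRNAs nearest in 3′ sequence (at any offset, an addition made after seeing the data), pattern and rank, and the 3 highest and 3 lowest pairs on the non-treated array. Pairs outside this rule (miR-17 and miR-30e), named because both strands were measured on all arrays, were chosen after their values were seen. The strands and lists were chosen with earlier results of these data known. Alternatives covered the summary of a name, spots, background, scaling, detection and single probes.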

Additional observations from a re-analysis of the deposited data

How the results depend on the processing

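No paired analysis was possible because each group had 1 array. Values are given for miR-195, then miR-497. The passenger percentages were 13.4% and 1.72% with the mean over probes or the software total per probe, and 11.3% and 1.55% with the median over probes. For miR-497 the percentage was 1.46% with the brightest probe, 6.41% with normexp (offset 50) and 7.80% without background subtraction. The offset of 50 was added to every spot, while the probes of hsa-miR-497* read 48.3 to 101 on the miR-497 array without it. The log2 ratio of the percentages was 4.15 with the brightest probe, 2.10 with normexp and 1.83 without background subtraction, so it kept its direction under these. Leaving out 1 probe at a time, the percentages ranged from 11.9% to 63.0% for miR-195 and from 2.16% to 26.5% for miR-497, and the log2 ratio from 0.016 to 4.20, its lowest value being without probe 2 of hsa-miR-497. These sums change with the number of probes, and an alternative chosen after seeing the data took the mean over the probes left: the ranges were then 7.92% to 17.5%, 0.988% to 6.62% and 1.02 to 3.76, the lowest log2 ratio again being without that probe.

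The log2 difference of hsa-miR-195 from the non-treated array was 9.45 with the brightest probe, 10.25 with only probes well above background, 7.90 with normexp and 9.28 with the percentile over all probes. The lower bounds for hsa-miR-195*, hsa-miR-497 and hsa-miR-497*, each on the array of its mimic, were in that order 8.58, 10.41 and 4.32 with the brightest probe, 9.43, 10.61 and 5.75 with only probes well above background, 9.63, 10.84 and 6.04 with the median over spots, and 5.44, 7.28 and 2.56 with normexp. They were 9.41, 9.65 and 4.88 with the percentile over all probes, 9.86, 9.39 and 4.61 without scaling, and 9.19, 10.37 and 5.50 when all spots had to be well above background. With quantile normalization the first and second were 9.73 and 10.39. All these stayed above 1, the log2 of 2-fold. The difference of hsa-miR-195 on the miR-497 array turned to -0.20 with the percentile over all probes and to -0.47 without scaling, and the bound of hsa-miR-497 with the miR-195 mimic ran from 0.35 to 2.12. The cause of these shifts was not tested. The dim signals of untransfected strands, near the background, limit every fold against them.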
